A study of Mus musculus with 3 samples.

Results

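The genes described here are 10 regulators of mitosis: the cyclins Ccna2, Ccnb1 and Ccnb2, the kinases Cdk1, Plk1, Aurka and Aurkb, the phosphatase Cdc25c, and Cdc20 and Ube2c, which work with the anaphase-promoting complex (APC/C). Every probe set annotated to one of these symbols alone was taken, without regard to its values. This gave 9 of the 18193 genes that have a probe set of their own, through 15 of 45037 probe sets. Ccnb1 was not analysed here, because no probe set was paired with it alone.

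Expression was measured on 3 single-colour arrays of follicular regulatory T (Tfr) cells, regulatory T cells with Foxp3 that move into the follicles, where they hold back germinal centres. The cells came from spleens of C57BL/6 mice on day 8 after OVA immunization and were sorted after lineage depletion by CD4, CD44, GITR, CD25 and CXCR5. One array held a pool of 4 wild-type (WT) mice. Each of the other 2 held a pool of 8 mice with CD4-Cre and floxed Rptor (Rptor-/-), given as biological replicates and called Rptor-null. Rptor encodes raptor, the subunit that defines the kinase complex mTORC1, and the comparison asks how Tfr expression differs without it. CD4-Cre acts in all cells that descend from CD4-expressing thymocytes, so the deletion is not particular to Tfr cells, and the ages and sexes of the mice were not given.

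Cyclin A2 and the B cyclins activate CDK1, and active cyclin B and CDK1 drive a cell into mitosis. CDC25C removes inhibitory phosphates from CDK1, PLK1 and Aurora A promote its activation and the building of the spindle, and Aurora B corrects chromosome attachments. CDC20 then switches on the APC/C, a ubiquitin ligase supplied by the conjugating enzyme UBE2C, and destruction of the cyclins lets the cell leave mitosis. In T cells these genes are transcribed mainly in dividing cells, in a late wave in G2 and M phase.

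That late transcription is known to run through 2 promoter elements, CCAAT boxes bound by NF-Y and the cell cycle genes homology region (CHR), whose core is TTTGAA. Promoter sequences from RefSeq (GRCm38.p6), which cover 250 bases before and 50 after the start, were on hand for 7 of the 10 genes. Those of Ccnb2, Cdk1, Cdc20 and Ube2c are printed from 130 bases before the start to 30 after it. Each shows both elements within this stretch, in a gene that was lower in the Rptor-null pools. Plk1 and Aurka, also lower, have a TTTGAA just beyond it and are not printed. Capitals mark TTTGAA and CCAAT on either strand, so that a match on the opposite strand reads TTCAAA or ATTGG.
Ccnb2, chr9:70421525-70421684, minus strand: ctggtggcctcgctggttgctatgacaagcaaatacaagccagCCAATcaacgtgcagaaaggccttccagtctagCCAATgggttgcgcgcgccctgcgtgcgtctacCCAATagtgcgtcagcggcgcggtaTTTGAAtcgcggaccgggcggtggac
Cdk1, chr10:69352883-69353042, minus strand: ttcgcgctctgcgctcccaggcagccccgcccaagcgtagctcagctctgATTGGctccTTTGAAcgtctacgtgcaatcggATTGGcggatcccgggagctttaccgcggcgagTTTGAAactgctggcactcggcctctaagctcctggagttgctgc
Cdc20, chr4:118437314-118437473, minus strand: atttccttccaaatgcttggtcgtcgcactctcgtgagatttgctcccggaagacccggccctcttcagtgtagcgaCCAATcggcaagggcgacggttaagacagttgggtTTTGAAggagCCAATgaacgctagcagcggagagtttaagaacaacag
Ube2c, chr2:164769799-164769958, plus strand: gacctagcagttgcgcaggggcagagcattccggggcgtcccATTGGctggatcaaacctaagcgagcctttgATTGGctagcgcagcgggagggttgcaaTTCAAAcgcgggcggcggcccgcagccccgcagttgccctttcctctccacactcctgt

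The 3 CCAAT boxes of Ccnb2 began 87, 54 and 21 bases before the start, with a TTTGAA at position 5 after it. Cdk1 had TTTGAA at 71 and 15 bases before the start, and Cdc20 had it at 18. In the full 300-base windows, 6 of the 7 promoters held TTTGAA, and all 7 held CCAAT. In Ube2c 6 CCAAT matches were found, of which those beginning at 186 and 183 bases before the start overlap. Plk1 and Aurka had TTTGAA in the transcribed part, at positions 31 and 33. The Ccnb1 window held CCAAT at 99 and 67 bases before the start and no TTTGAA. The similar letters TTTAAA were searched for too, but are not marked or counted as TTTGAA. They began 42 bases before the start in Ccnb1, 89 and 29 before it in Plk1, and at position 18 in Aurka. Of all 32851 promoter windows in the table, 17.9% held TTTGAA, 37.4% held CCAAT and 6.95% held both. A match is a stretch of letters and does not show binding.

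**Figure D1:**
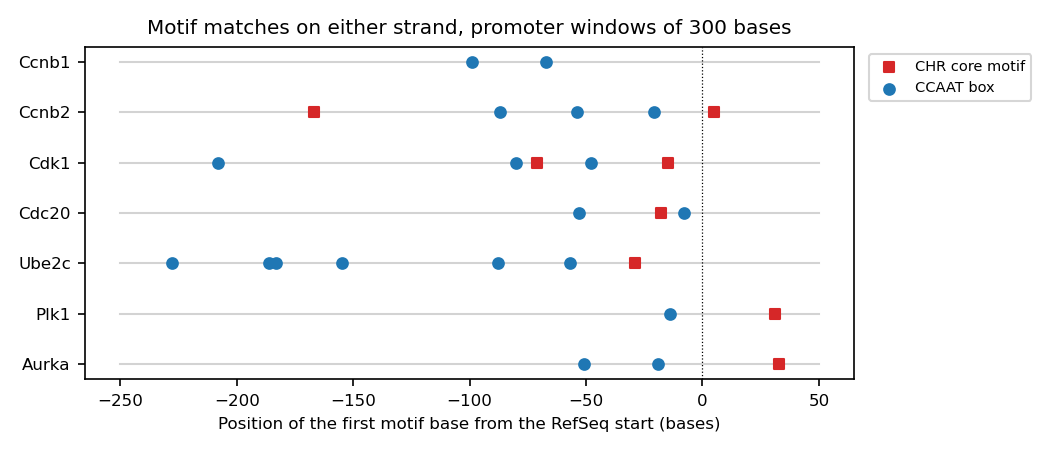
Positions of TTTGAA (the CHR core, red squares) and CCAAT (blue circles) on either strand in the 300-base promoter windows of 7 mitotic regulators, in bases from the RefSeq start at the dotted line. The matches lie mostly within 100 bases of the start, and Ccnb1 is the promoter with no red square.

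Values are the deposited probe-set intensities, which have no replicate error for WT. The brightest probe set of Rptor read 365, 353 and 412 in WT and the pools, and as its place relative to the deletion is unknown it checks nothing about it. Several measures differed between the groups on these arrays. In WT and the Rptor-null pools, 3' over 5' signal was 1.11, 1.94 and 2.58 for Gapdh and 1.40, 2.65 and 2.87 for beta-actin. The summed level of the 11 measured T cell markers was 48595, 32099 and 31465, and that of 14 macrophage markers was 36591, 50890 and 57569. The part of these measures in the results was not tested, and in bulk samples fewer dividing cells and less RNA per cell cannot be told apart.

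The signal of the mitotic regulators was lower in the 2 sorted Rptor-null pools than in the WT pool. Both Rptor-null pools lay below WT on 14 of the 15 probe sets, a rule met by 33.5% of all probe sets on the array. Probe sets were tested where the mean of the 2 group means was above 34.998, the 40th percentile of all probe sets, which kept 12 of the 15 and 8 genes. Of these 12, 11 were lower and 1 did not pass, with limma on log2(intensity + 16) and Benjamini-Hochberg adjustment over 27022 probe sets. The 11 include Aurkb 1451246_s_at, which was kept through its WT value only, and without it 10 of 11 were lower. In that comparison 6.11% of all kept probe sets were called lower and 2.81% higher. In 5 bins by level, the share called lower rose from 0.57% in the dimmest to 8.03% and 15.9% in the 2 brightest. Those 2 bins held 5 and 2 of the 12 regulator probe sets. Without the filter 8 of all 15 were lower, against 2.15% of all probe sets. At least 2-fold lower values in both pools were found for 4 of the 12, against 0.659% of all kept probe sets.

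The median log2 difference was -0.88 over all 15 probe sets, beside a median of 0.02 over all 45037. With 1 WT array the spread came from the 2 Rptor-null arrays and limma's variance prior, and WT was assumed to vary like those arrays. When the variance prior had no trend with level, 0 of the 12 passed in limma, with adjusted p-values from 0.0507 to 0.0975 for the 11 called before. In that fit all 11 were lower at an unadjusted p under 0.05, as were 15% of all kept probe sets. Against the second Rptor-null pool alone, without the first, 8 of the 12 were at least 2-fold lower, against 1.1% of all kept probe sets. Against the first pool alone, only those of Ccnb2, Cdk1, Ube2c and Plk1 were, and the share over all kept probe sets is not given for it. The median log2 difference of the 12 was -0.94 in the first pool and -1.04 in the second.

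**Figure D2:**
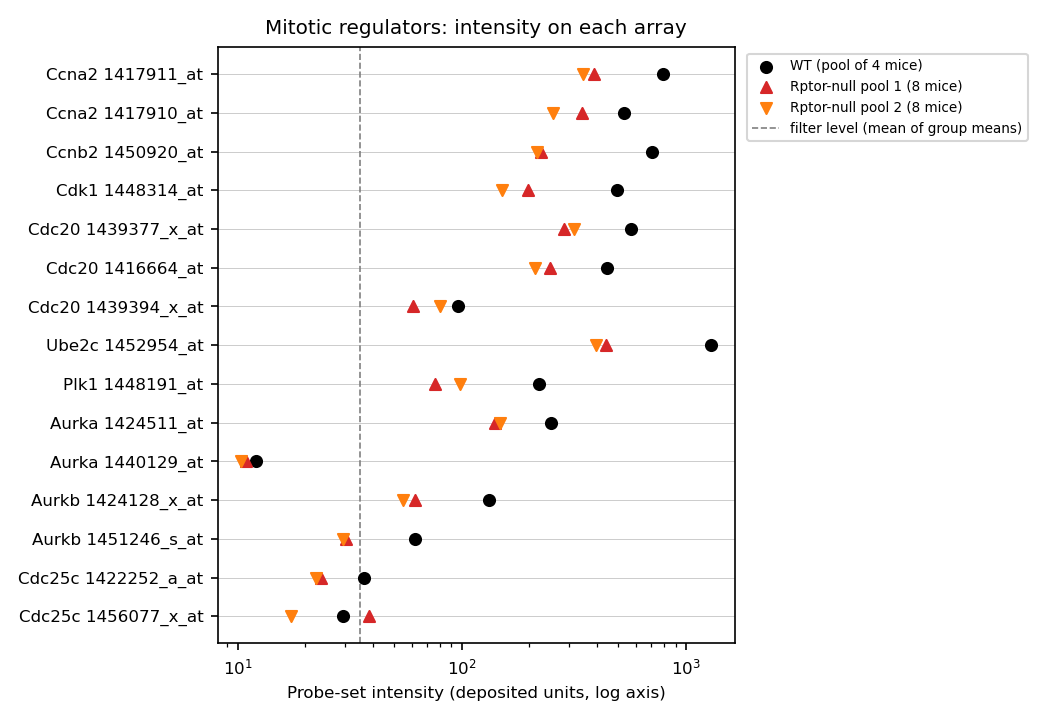
Intensity of each of the 15 probe sets (log axis, deposited units) on the WT array and on the 2 Rptor-null arrays, with the filter level of 34.998 as a dashed line. WT lies to the right of both Rptor-null pools except on the Cdc25c probe set 1456077_x_at, where the pools fall on either side of it.

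Among the cyclins, Ccnb2, a B-type partner of CDK1, read 705 in WT, and 226 and 217 in the pools. The pools lay close together and far below WT, at 31.5% of its level on average. Its log2 difference of -1.60 ± 0.14 (SE; limma adjusted p = 0.0074), or 3.03-fold, was the 22nd lowest of the 27022 probe sets tested. Ccna2, which encodes the cyclin of S phase and early mitosis, had 2 probe sets. The brighter read 789, then 390 and 348, a log2 difference of -1.07 ± 0.14 (adjusted p = 0.0117). The other, 1417910_at, read 532, 345 and 255. Here the pools differed more from each other, by 0.41 on the log2 scale, which was the widest gap between them among the 12. The difference of -0.81 ± 0.19 had an adjusted p of 0.0484, and it did not pass without the filter (0.0814), after quantile normalization (0.0875), without the trend (0.0975) or without cross-matching probe sets (0.0547).

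Cdk1, the kinase that both cyclins activate, read 492 in WT and 198 and 152 in the pools. No Rptor-null value came near WT, and the log2 difference was -1.42 ± 0.19 (adjusted p = 0.0123), or 2.68-fold. Cdc25c, the phosphatase acting on CDK1, was dim on both of its probe sets, and neither was kept by the filter. Its 1422252_a_at read 36.8, 23.5 and 22.4, so that both pools were below WT. Its 1456077_x_at read 29.6 in WT and 38.4 and 17.4 in the pools, which lay on either side of WT. Without the filter, the Cdc25c differences were -0.44 (adjusted p = 0.153) and -0.10 (adjusted p = 0.908).

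Of the factors that work with the APC/C, Ube2c, whose product adds the first ubiquitin, read 1301 in WT and 442 and 396 in the pools, at 32.2% of the WT level on average. The log2 difference was -1.60 ± 0.13 (adjusted p = 0.0074), the 23rd lowest, next to that of Ccnb2. Cdc20, the activator of the APC/C in mitosis, had 3 kept probe sets, of which 2 passed the test. Its 1439377_x_at read 568, 287 and 317, and its 1416664_at read 444, 247 and 213. On both the pools were at 53.2% and 51.7% of WT, with log2 differences of -0.88 ± 0.14 and -0.91 ± 0.16 (adjusted p = 0.0178 and 0.0214). The dimmer 1439394_x_at read 96.7, 60.3 and 80.0, a difference of -0.40 ± 0.20 that did not pass (adjusted p = 0.281, and 0.215 to 0.422 over the alternatives).

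Among the other mitotic kinases, Plk1 read 222 in WT and 76.2 and 97.8 in the pools. Its log2 difference was -1.22 ± 0.19 (adjusted p = 0.0178), or 2.33-fold. Aurkb, the Aurora kinase of the chromosomal passenger complex, read 133, 62.0 and 54.6 on its brighter probe set, a difference of -1.004 ± 0.18 (adjusted p = 0.0221). Its 1451246_s_at read 62.0, 30.3 and 29.6. That probe set was kept through its WT value only, since its Rptor-null mean of 29.95 was under the filter level, and its difference of -0.76 had an adjusted p of 0.0319, and of 0.0567 without the filter and 0.0608 without the trend.

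Aurka, the Aurora kinase of spindle poles, had the smallest difference among the 8 genes on their brightest probe sets. It read 250 in WT and 141 and 149 in the pools, -0.72 ± 0.16 on the log2 scale (adjusted p = 0.0397). The call was lost without the filter (0.0613), after quantile normalization (0.0606) and without the trend (0.0646). The other probe set of Aurka, 1440129_at, read 12.1, 10.9 and 10.4, below the filter level. The values inside and outside that level nearest to it were those of Aurkb 1451246_s_at, with a mean of the group means of 46.0, and of Cdc25c 1422252_a_at, at 29.8.

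On the brightest probe sets the estimated log2 differences ran from -1.60 to -0.72. The 95% interval of Ccnb2 ran from -1.93 to -1.27 and that of Ube2c from -1.91 to -1.29, each entirely below the interval of Aurka, -1.10 to -0.35, and that of Cdc20 1439377_x_at, -1.21 to -0.54. The intervals of Cdk1 (-1.87 to -0.98), Plk1 (-1.68 to -0.75), Ccna2 (-1.39 to -0.74) and Aurkb (-1.42 to -0.59), on their brightest probe sets, overlapped those of their neighbours in this order, and differences between genes were not tested. Between the 2 Rptor-null pools, the 12 kept probe sets differed by a median of 0.16 on the log2 scale, beside 0.13 for all kept probe sets. The second pool was the lower one on 8 of the 12 and the higher on 4.

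**Figure D3:**
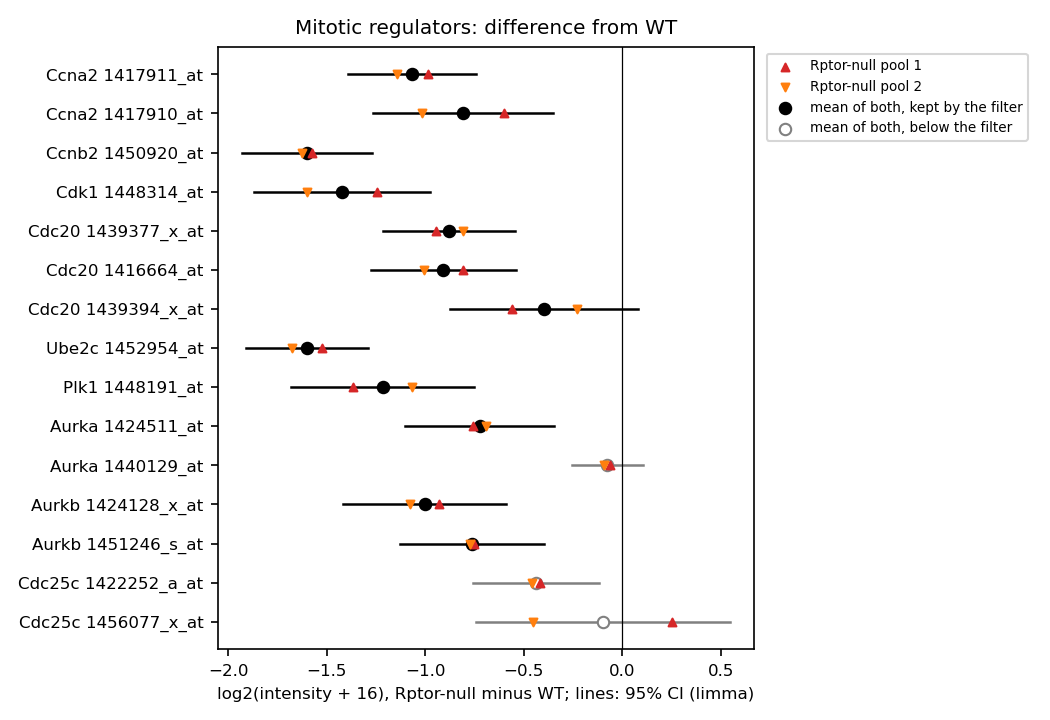
Difference of log2(intensity + 16), Rptor-null minus WT, for the 15 probe sets: circles give the mean of both pools, lines the 95% interval from limma (for the 3 open circles from the fit without a filter), and triangles each pool. The triangles of both pools lie left of 0 for all but Cdc25c 1456077_x_at, and the intervals of Ccnb2 and Ube2c lie farthest left.

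The rest of the machinery was counted by gene, on each gene's brightest probe set and with the adjusted p of the same fit, by which 7.62% of 12721 genes were lower and 2.76% higher. As for the regulators, limma without a variance trend called 0 genes in every list given here. In that fit 5 of the 14 APC/C core subunits, 10 of 16 Aurora and polo partners and 12 of 15 S phase genes were lower at an unadjusted p under 0.05, against 17.5% of the 12721 genes. The core subunits of the APC/C, the ligase that CDC20 and UBE2C serve, were lower in 2 of 14 cases and higher in 0, with a median log2 difference of -0.29, and in 1 case without the filter or after quantile normalization. Anapc16 read 1498 in WT and 843 and 802 in the pools (-0.85, adjusted p = 0.0118), though its 4 kept probe sets ranged from -0.85 to 0.07. Anapc10 read 719, 461 and 503 (-0.56, adjusted p = 0.0433). Cdc23 and Anapc15 did not pass, at -0.45 and -0.43 (adjusted p = 0.118 and 0.161).

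Among coactivators, inhibitors and first substrates of the APC/C, 4 of 13 kept genes were lower and 0 higher, with a median of -0.55. The count was 2 without the filter or after quantile normalization, and 0 of the 7 genes left without cross-matching probe sets. Trip13, a remodeller of the spindle checkpoint protein MAD2, read 249, 128 and 133 (-0.86, adjusted p = 0.0261), and its other kept probe set was at -0.03. Bub1b, a checkpoint inhibitor of CDC20, read 193, 114 and 105 (-0.73, adjusted p = 0.0447), with 3 kept probe sets from -0.83 to -0.13. The other called genes were Ube2s and Bub3, at -0.59 and -0.52, and are named because the count is small. Fzr1, the coactivator that replaces CDC20 after mitosis, read 179, 121 and 102 (adjusted p = 0.0858). Fbxo5, an inhibitor of the APC/C, read 329, 241 and 201 (adjusted p = 0.0927). Pttg1, which encodes securin, read 6627, 5490 and 5065 (-0.33, adjusted p = 0.0684), with 3 kept probe sets from -0.71 to 0.04.

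In the list of genes that control CDK1, 4 of 16 were lower and 0 higher, with a median of -0.27, and 1 of 9 without cross-matching probe sets. Cks1b, a CDK-binding subunit, read 2333 in WT and 1431 and 1182 in the pools (-0.83, adjusted p = 0.018). Cdc25b, a phosphatase of the same family as Cdc25c, read 770, 423 and 451 (-0.80, adjusted p = 0.0175). Cyclin F, encoded by Ccnf, read 100.2, 52.8 and 43.7 (-0.86, adjusted p = 0.0339). Cdk7, the CDK-activating kinase, was at -0.73 (adjusted p = 0.0248), with 4 kept probe sets from -0.73 to 0.31. Wee1, the kinase that opposes CDC25, read 254, 224 and 195 (-0.26, adjusted p = 0.375).

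Partners of the Aurora and polo kinases were lower in 6 of 16 cases and higher in 0, with a median of -0.56, and 1 of 8 was lower without cross-matching probe sets. At least 2-fold lower values in both pools were found for 4. Birc5 and Cdca8 encode survivin and borealin, which hold Aurora B in the chromosomal passenger complex. Birc5 read 645, 254 and 215 (-1.40, adjusted p = 0.0103). Cdca8 read 812, 348 and 343 (-1.20, adjusted p = 0.0102). The checkpoint kinase Bub1 read 277, 99.0 and 99.9 (-1.35, adjusted p = 0.0111), and the mitotic kinase Pbk 340, 119 and 133 (-1.33, adjusted p = 0.0112). For these 4 genes, as for Aurkb, both pools lay well below WT.

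The transcriptional regulators of the late wave were measured as well. Of the 22 genes of the FOXM1, MYBL2 and DREAM list, 0 were lower and 0 higher in limma, with a median of -0.19, while 6 were lower at an unadjusted p under 0.05, against 20% of the 12721 genes. The count of lower genes was 5 with the mean of each gene's probe sets, 3 after median centring or with the test run on 1 probe set per gene, and 1 with a pseudocount of 64 or a filter at the 60th percentile. Foxm1, an activator of G2 and M phase genes, read 166 in WT and 175 and 190 in the pools (0.13, adjusted p = 0.695), and its 3 kept probe sets ranged from -0.11 to 0.13. Mybl2, the B-MYB partner of the MuvB complex, read 71.6, 55.4 and 51.2 (-0.34, adjusted p = 0.268). E2f7, a repressor of the E2F family, read 94.1, 53.7 and 38.2 (-0.84, adjusted p = 0.0506), and Lin37, Lin54 and Tfdp1 were at -0.67, -0.70 and -0.44 without passing. The 2 kept probe sets of Lin54 were at -0.70 and 0.46.

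Genes of S phase entry and general proliferation were lower in 10 of 15 cases and higher in 0, with a median of -0.62 beside -1.14 for the 8 mitotic regulators on their brightest probe sets. The count was 8 without the filter and 7 after quantile normalization. The 5 that did not pass were Ccne1 (-0.04), Ccne2 (-0.44), Cdk2 (-0.16), Cdc6 (-0.74, limma adjusted p = 0.0517) and Cdt1 (0.10). Top2a, the topoisomerase of replicating and dividing cells, read 1568, 794 and 723 (-1.03, adjusted p = 0.0106), with 2 kept probe sets at -1.03 and -0.22. Mki67, a marker of cycling cells, read 1632, 979 and 904 (-0.78, adjusted p = 0.0139). Gmnn, an APC/C target that blocks relicensing of origins, was at -0.91 (adjusted p = 0.0169), and Mcm6 of the replicative helicase at -0.76 (adjusted p = 0.0124). The difference between the lists' medians was not tested.

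Cell type markers moved on the same arrays. On their brightest probe sets T cell markers were lower in 7 of 11 cases, higher in 0, and ranged from -0.96 (Cd3g) to -0.13 (Zap70) with a median of -0.64. All 8 mitotic regulators, on their brightest probe sets, were below that median, and 6 of them, all but Cdc20 and Aurka, were below Cd3g. The value of Zap70 depended on the probe set. Its 3 kept probe sets ranged from -0.89 (adjusted p = 0.0111) to 0.23 (adjusted p = 0.310). Another kept probe set of the T cell marker Cd247 read 1025 in WT and 240.1 and 149 in the pools, and its difference of -2.34 (adjusted p = 0.0102) was below that of every regulator. Of the Treg and sort markers 3 of 7 were lower and 0 higher. The lower ones were Tnfrsf18, which encodes GITR, at -1.35, Ctla4 at -1.003 and Cxcr5 at -0.87. Cd44 lay above WT in both pools, at 3540, 4383 and 4306 (0.29, adjusted p = 0.0817), with 3 kept probe sets from -0.14 to 0.62. After quantile normalization 1 gene of this list was called higher. Foxp3 read 752, 587 and 423 (-0.58, adjusted p = 0.119).

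Macrophage markers were higher in 8 of 14 cases and lower in 0, with a median of 0.75. The adhesion molecule Vcam1 read 2742 in WT and 6273 and 6323 in the pools, and the mannose receptor gene Mrc1 786, 1673 and 1927. Csf1r, which defines the lineage, was bright in the WT pool too, at 7911. Markers of other cells that can divide in the spleen were counted too. The summed level of 7 erythroid precursor markers was 1002, 1194 and 1085, with 0 of 6 kept genes called, and Hba-a1 read 19.5, 25.3 and 20.3. Of germinal centre B cell markers Gcsam and Rgs13 were below the filter level on all 3 arrays, at most 13.0 and 9.56. S1pr2 read 280, 336 and 308 on its brighter probe set, and its 2 kept probe sets were at 0.19 and -0.34. Neil1 was lower (-0.73, adjusted p = 0.0438), a call lost without the filter and after quantile normalization. B cell markers summed to 1711, 1653 and 1924, with 1 of 7 called, Bank1, which was higher at 488, 721 and 886, a call lost without the filter. Of the 7, 3 lay above WT in both pools and 3 below it. The 3 below were Cd22, Cd79b and Ms4a1, at -0.47, -0.36 and -0.33, and did not pass. Among NK and cytotoxic markers 1 was lower, Cd8b1, and 1 higher, Eomes, of 9, and among plasma cell markers 1 of 6 was lower, Irf4, which activated T cells also express. The call of Eomes was lost without the filter, and that of Irf4 without the filter and after quantile normalization.

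**Figure D4:**
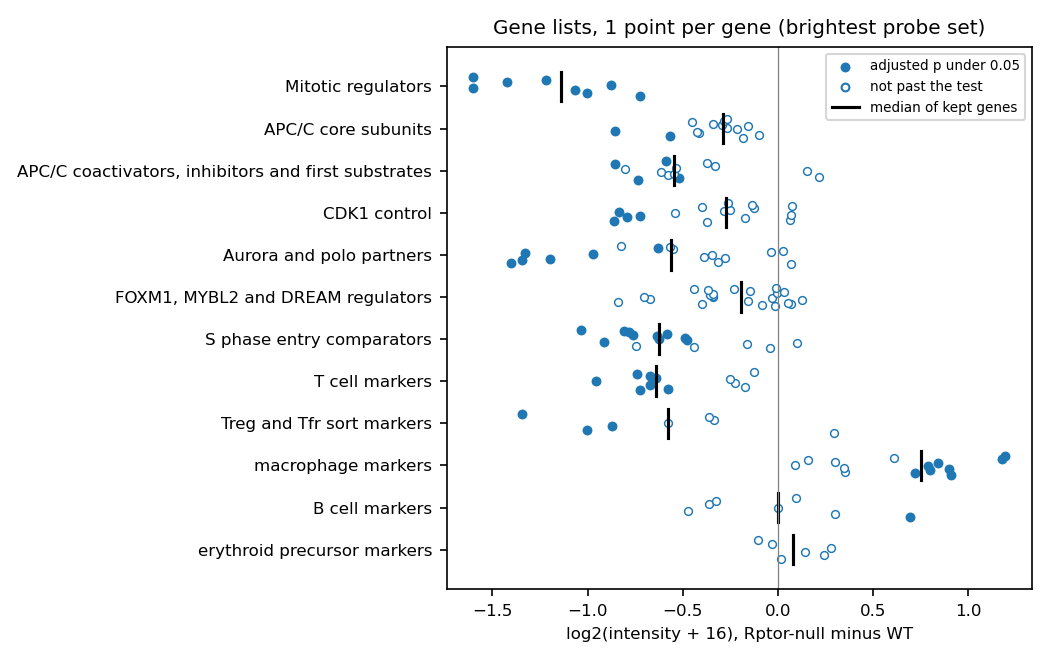
Difference of log2(intensity + 16), Rptor-null minus WT, with 1 point per kept gene on its brightest probe set, filled where limma's adjusted p was under 0.05, and the median of each list as a bar. The mitotic regulators lie between -1.60 and -0.72, the APC/C core subunits between -0.85 and -0.10, and the macrophage markers to the right of 0.

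The promoter letters were then set beside the differences for the genes outside the 10 regulators. A promoter entry was found for 10206 such genes, of which 7.69% were lower and 2.77% higher. Of the 5146 with neither motif, 6.94% were lower. Of 740 with TTTGAA alone and 3618 with CCAAT alone, 8.78% and 7.74% were lower. Where 1 promoter held both, as in 6 of the 7 regulator promoters, 77 of 582 genes were lower (13.2%), and of the subset of these with TTTGAA and at least 2 CCAAT matches, 38 of 213 were (17.8%), with 1.88% higher. The median log2 differences of these last 2 classes were -0.10 and -0.11, beside -0.06 for genes with neither motif, so most genes with these letters differed little. The shares are descriptions of this comparison without a test, and the classes were chosen after the values had been seen.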

How the data were processed

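Probe-set intensities on a linear scale were deposited for 3 arrays, already scaled by the authors. The submitters' processing notes name MAS5 without a version, and the background correction, scaling target and summary method were not given in the sources used here. The array medians were 52.7 (WT), 54.9 and 54.8. Arrays have no read depth, and precision is limited by their number. Groups came from the sample titles. No batch was given.

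After 64 control probe sets were set aside, 45037 remained: 34945 named 1 gene in the platform annotation, 932 several and 9160 none. Names ending in _s_at, _x_at or _a_at mark probe sets that can match several transcripts. Intensities were converted to log2(intensity + 16), and folds on that scale are too small for dim genes. For each probe set the group means were averaged, and those above the 40th percentile of this average were tested with limma 3.58.1 in R 4.3.3 (lmFit, eBayes with a mean-variance trend, 1 residual and 5.85 prior degrees of freedom), two-sided, with Benjamini-Hochberg adjustment and a threshold of 0.05. The test ran per probe set because the regulators are given per probe set. The p-values rest on the spread between the 2 Rptor-null pools and on the variance prior. No spread between WT pools was measured.

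The genes, lists and tests were chosen with earlier results of these data known. All 10 regulators were named. In each list the genes named were at most 4 for which both pools lay on 1 side of WT, ranked by the pool nearer to WT, plus Rptor, Mki67, Foxm1, Mybl2, Fzr1, Fbxo5, Wee1, Pttg1 and defining markers. List symbols were matched by symbol or Entrez number. Not every gene of the T cell marker list was analysed here. On simulated data (20 sets of 27022 probe sets, 200 changed), 15.9% of log2 changes of -1 and 0.6% of -0.5 were recovered, and 10.4% of calls were false. The comparison itself called 1651 lower and 759 higher, more than the 200 changed there, so these rates need not hold for it. The 13 alternatives were 2 pseudocounts, 2 filters, 2 scalings, 2 ways of combining probe sets, 2 variance priors, no cross-matching probe sets, and each Rptor-null array left out.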

Additional observations from a re-analysis of the deposited data

How the results depend on the processing

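The difference of each kept regulator probe set kept its direction in every alternative that gave it a value: of 142 such values 125 also kept their side of the threshold and 17 lost the call, 11 of them without a variance trend. Of the 12 kept probe sets the number called lower was 11, and 7 of 8 without cross-matching probe sets and 0 without a trend, where 1 probe set was called lower and 1 higher over the whole array. The number at least 2-fold lower was 4, then 7 with a pseudocount of 1 and 3 with a pseudocount of 64. With 1 Rptor-null array left out it was 4 against the first pool and 8 against the second, values without a test. Over the array 1651 probe sets were lower and 759 higher. These were 969 and 454 without a filter, over 45037 probe sets in place of 27022. They were 857 and 467 without cross-matching probe sets, where fewer were tested. Quantile normalization gave 987 lower. When a gene's brightest probe set stood for it, 1411 of 12721 genes were lower and 500 higher, and 467 were higher when its probe sets were averaged. Both of these settings tested genes, which are fewer than the probe sets, so their counts cannot be compared with 1651 and 759 directly. Of all calls 68.5% were lower, 52.8% after quantile normalization and 75.7% after median centring. The cause of these shifts was not tested. The B cell median (0.0005) turned to -0.0052 with a pseudocount of 1, to -0.34 with a filter at the 60th percentile, to -0.042 by quantile normalization and -0.045 by median centring, and lay between -0.24 and 0.0196 with 1 Rptor-null array left out. The germinal centre B cell median (0.11) turned to -0.27 at the 60th percentile and to -0.072 when probe sets were averaged. Leaving out cross-matching probe sets turned it to -0.73 and the NK median (-0.23) to 0.016. No paired analysis was possible because WT has 1 array and its label carries no replicate number.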
